A study of Mus musculus with 2 samples.

Results

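The genes described here act in the repair of DNA double-strand breaks and interstrand crosslinks. They were chosen by name and role, without a rule on their values but with earlier results of these data known. They comprise 45 genes of the 22911 that could be named on the arrays: 8 of checkpoint signaling at breaks, 16 of homologous recombination, 6 of classical end joining, 5 that act with DNA ligases 1 and 3 and poly(ADP-ribose) polymerases at nicks and in alternative end joining, and 10 of the Fanconi pathway. Their expression was compared between 2 cultures of mouse LKS+ cells, the c-kit+ Sca-1+ part of lineage marker-negative BM cells, in which hematopoietic stem and progenitor cells (HSPCs) are found.

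Sorted cells of WT mice were first expanded in a serum-free medium with SCF (stem cell factor, 100 ng/ml), IL-3 and IL-6 (10 ng/ml each). Extracellular vesicles (EVs, called exosomes in the labels) prepared from spleen were then present for 24 h at 150 μg/ml. For 1 culture the EVs came from spleens of normal mice (control EVs), and for the other from spleens of mice with chronic myeloid leukemia (CML EVs). The CML donors had received LKS+ cells carrying a BCR-ABL retrovirus, together with normal BM cells, after sublethal irradiation. According to the methods, the CML mice that gave EVs for the arrays were irradiated before their spleens were taken, which the labels do not mention. No irradiation is given for the normal mice, so the part of leukemia and that of irradiation cannot be told apart. Neither the labels nor the methods give the strain for these 2 cultures or how many mice were pooled.

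Each culture gave 1 one-colour Agilent array, so there was no replicate check of any difference, and no p-value or standard error across samples was computed. Of 59305 spots, 54.4% stood well above background on the control EV array and 53.3% on the other. Signals below are processed intensities scaled to a common mean, and log2 ratios are CML EVs over control EVs, so that a negative value is lower with CML EVs. Signals of different genes come from different probes and are not compared with each other. In RNA of whole cultures, fewer cells of a type and less RNA per cell cannot be told apart. Of 14 stem and progenitor markers 13 passed the background filter on both arrays and Mecom on neither. Kit had signals of 1646 and 1529 with control and CML EVs, Ly6a, which encodes Sca-1, 1548 and 1985, and Cd34 24845 and 21996. Genes typical of mature lineages were also well above background in both cultures after the expansion. Among them were the neutrophil gene S100a9 (134970 and 158211), the platelet gene Pf4 (55955 and 52699) and the basophil gene Mcpt8 (26399 and 27860). Their products are not among the lineage markers used in the sort. The markers thus do not show a culture of stem and progenitor cells alone.

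A double-strand break is sensed by the Mre11-Rad50-Nbs1 complex, which brings the kinase ATM to the site, whereas ATR responds to single-stranded DNA at resected ends and stalled forks. These kinases phosphorylate histone H2A.X, giving the damage mark γH2A.X, and the checkpoint kinases CHK1 and CHK2. The ends are then either joined directly, with Ku and DNA-PK, or resected and copied from the sister chromatid by homologous recombination, which needs BRCA1 and BRCA2. Crosslinks between strands are handled by the Fanconi pathway, in which the core complex adds ubiquitin to the FANCD2-FANCI pair. HSPCs rely on these pathways, and inherited loss of Fanconi genes leads to bone marrow failure. Many of the genes are transcribed mainly in cycling cells. The comparison asks how their transcripts lay in the expanded culture of LKS+ cells given CML EVs, set against that given control EVs.

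The transcripts of repair genes differed little between the 2 cultures. All 45 members passed the background filter on both arrays, and all log2 ratios lay between -0.25 for Chek2 and 0.21 for Fanci. None of the 45 was higher with CML EVs by 25% or more (0.32 on the log2 scale), against 5.01% of the 13411 genes measured on both arrays, and none was higher with control EVs by as much, against 5.25% of all. Past 1.5-fold lay 1.52% of all genes on the higher and 1.18% on the lower side, and past 2-fold 0.395% and 0.224%, with no member among them. At 1.1-fold, 2 members were higher (17.3% of all genes were) and 3 were lower (17.2% of all). The 2 were Fanci and Lig3, and the 3 were Chek2, Brca2 and Chek1. The median log2 ratio of the members was -0.03, against 0.01 over all measured genes. Below 0 were 25 members, or 55.6%, against 48.1% of all genes, and above 0 were 20, or 44.4%, against 51.9%. That count turned with the scaling: with arrays scaled to the median of all spots every ratio was 0.07 higher and 10 members lay below 0. Relative to the median of all genes, which no such factor alters, 26 members lay lower.

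The members also lay close together. Their log2 ratios had an SD across genes of 0.09, against 0.23 for all measured genes, and 36 of 45, or 80.0%, lay within 0.1 of 0, against 53.1% of all. Dim genes were spread more widely, and the SD over all genes with a mean log2 signal of 8 or more was 0.15. Of the members with a mean log2 signal of 8 or more, 80.6% lay within 0.1 of 0, against 63.0% of all genes of that brightness.

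**Figure D1:**
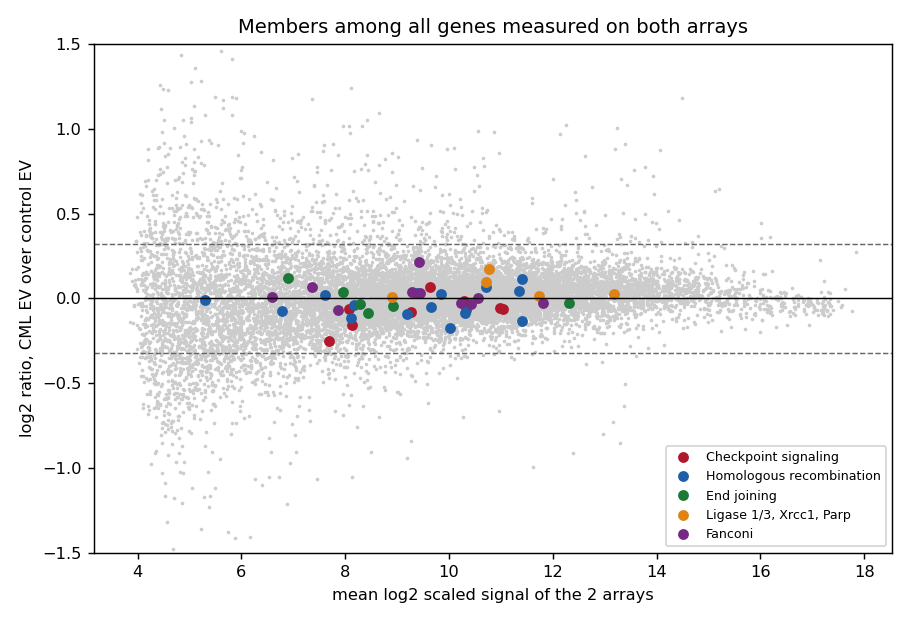
Ratio of CML EV to control EV signal (vertical axis, log2) by brightness (horizontal axis, mean log2 signal of both arrays after scaling), with 1 point per gene: grey for the 13411 genes measured on both arrays and coloured by role for the 45 members. Dashed lines mark a difference of 25%, 24 grey genes lie beyond the vertical axis, and no coloured point passes a dashed line.

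Technical error was read from the error model of the scanner and from repeated probes, neither of which covers cultures or EV preparations. The scanner software gives each spot an error, which for the ratio of a member came to between 0.20 and 0.25 on the log2 scale; 2 of 45 members, Chek2 and Fanci, exceeded their own. Probes placed up to 10 times on each array gave the spread between spots. It was 0.03 as a median SD of the log2 ratio over 262 probes with a mean log2 signal of 10 or more, 0.13 over 5 probes between 6 and 8, and 0.29 over 3 dimmer ones. Between 8 and 10, where 17 members lay, there was only 1 such probe, with an SD of 0.10. None of the repeated probes belonged to a member. Of the 19 members with a mean log2 signal of 10 or more, 8 lay farther than 2 such SDs (0.068) from 0, or 42.1%, against 49.1% of the 5707 genes of that brightness. What another culture of either kind would give was not measured.

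The promoters of the members were examined for what the genes share beyond their role. RefSeq windows of 300 bases (GRCm38.p6), from 250 before to 50 after an annotated start, were at hand for 37 members; Exo1, Fancd2, Nbn, Prkdc, Rad50, Rbbp8, Wrn and Xrcc2 had none. E2F factors drive genes of the S phase, and their sites were searched on both strands as TTTCCCGC, TTTGGCGC, TTTCGCGC and TTTGCCGC. A match stood in a window of 8 members (Bard1, Brca2, Chek2, Fancg, Lig1, Mdc1, Rad51c and Xrcc6), or 21.6%, against 4.61% of the 10728 measured genes with a window and 2.26% of all 32851 windows. The 8 had a median log2 ratio of -0.02 and the 29 others one of -0.03. The interferon-stimulated response element, which type I interferon acts through and which was searched because the study followed that signaling, was read as GAAA, any 2 bases and GAAA on both strands. It stood in windows of Brca2, Chek1, Fancg and Xrcc1. That is 10.8% of the 37, against 3.88% of measured genes and 3.44% of all windows. Their log2 ratios were -0.18, -0.16, 0.00 and 0.01. The CCAAT box bound by NF-Y was in windows of 20 members, or 54.1%, against 42.8% of measured genes and 37.4% of all windows. The cell cycle element searched as TTTGAA and TTCGAA on both strands was in those of 3 members, Atr, Bard1 and Rnf8, or 8.11%, against 17.1% of measured genes and 19.2% of all windows.

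The matches of the E2F and interferon elements before an annotated start are printed here, whatever the ratio of the gene. They are given on the gene's strand with the matched letters in capitals. The Fancg matches for the E2F and interferon elements overlap; those in Lig1 and Rad51c lie at or after a start and are not printed.
Chek2, E2F, chr5:110839820-110839849 (+): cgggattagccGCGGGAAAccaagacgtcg
Chek1, interferon element, chr9:36726828-36726879 (-): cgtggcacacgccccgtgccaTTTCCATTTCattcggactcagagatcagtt
Mdc1, E2F, chr17:35841471-35841497 (+): tcttcagcctgTTTCCCGCcggtagcc
Brca2, E2F, chr5:150522442-150522471 (+): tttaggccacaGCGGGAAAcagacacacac
Brca2, interferon element, chr5:150522409-150522438 (+): cgaagatacaGAAAAAGAAAgtataaacaa
Bard1, E2F, chr1:71103163-71103192 (-): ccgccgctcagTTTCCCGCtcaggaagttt
Xrcc6, E2F, chr15:82016312-82016341 (+): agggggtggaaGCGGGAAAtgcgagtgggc
Xrcc1, interferon element, chr7:24546449-24546479 (+): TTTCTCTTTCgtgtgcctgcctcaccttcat
Fancg, both, chr4:43010338-43010367 (-): gggtttctTTTCAGTTTCCCGCggaaccgt
Each is a match of letters and not a measured binding site, and whether a match bears on a ratio was not tested. The genes that hold them reach from Chek2 at -0.25 to Mdc1 at 0.07.

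Genes of checkpoint signaling leaned lower with CML EVs by small amounts. Of 8 members 7 lay below the median of all genes. The same 7 did so with quantile normalization and normexp background correction, which can each move a gene against that median, and with averaged probes. Averaging cannot move the ratios of Chek2, Atr and Rnf168, which had 1 probe each. Some margins were far below the technical error. With averaged probes Rnf8 was at 0.0043 against a median of 0.0047. With normexp Atr and Rnf168 were at -0.001 and -0.002 against 0.003. A change of the background filter moves the median itself and is given further below. The median of the 8 was -0.06 on the log2 scale. Chek2 encodes the kinase CHK2, which acts downstream of ATM. Its signals were 223 (control EVs) and 188 (CML EVs), a log2 ratio of -0.25 or 1.19-fold lower, the lowest of all 45 members, measured by 1 probe. Its promoter holds an E2F match printed above, as does that of Mdc1, the highest of the group. Chek1 encodes CHK1, the kinase downstream of ATR that restrains entry into mitosis and protects replication forks. It had signals of 296 and 266, a log2 ratio of -0.16, and its other probe gave 238 and 203, a log2 ratio of -0.23. Both probes of Chek1 were therefore lower in the CML EV culture.

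The other genes of this group were nearer to 0. Trp53bp1 encodes 53BP1, which shields ends from resection and favors end joining; its brightest probe had signals of 630 and 596, a log2 ratio of -0.08. The ubiquitin ligase genes Rnf8 and Rnf168, whose products mark chromatin around a break for 53BP1 and BRCA1, had signals of 2068 and 1984 and of 1251 and 1238, with log2 ratios of -0.06 and -0.01. Mdc1, for the adaptor that binds γH2A.X, was the member on the upper side, with signals of 777 and 814 and a log2 ratio of 0.07. Atm had signals of 276 and 264 and Atr 2166 and 2074, each with a log2 ratio of -0.06. The other probes of Atm and Rnf8 lay on the other side of 0. That of Atm had signals of 206 and 212, a log2 ratio of 0.04, and that of Rnf8 453 and 475, a log2 ratio of 0.07. With median scaling Atm, Atr, Rnf8 and Rnf168 lay above 0.

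**Figure D2:**
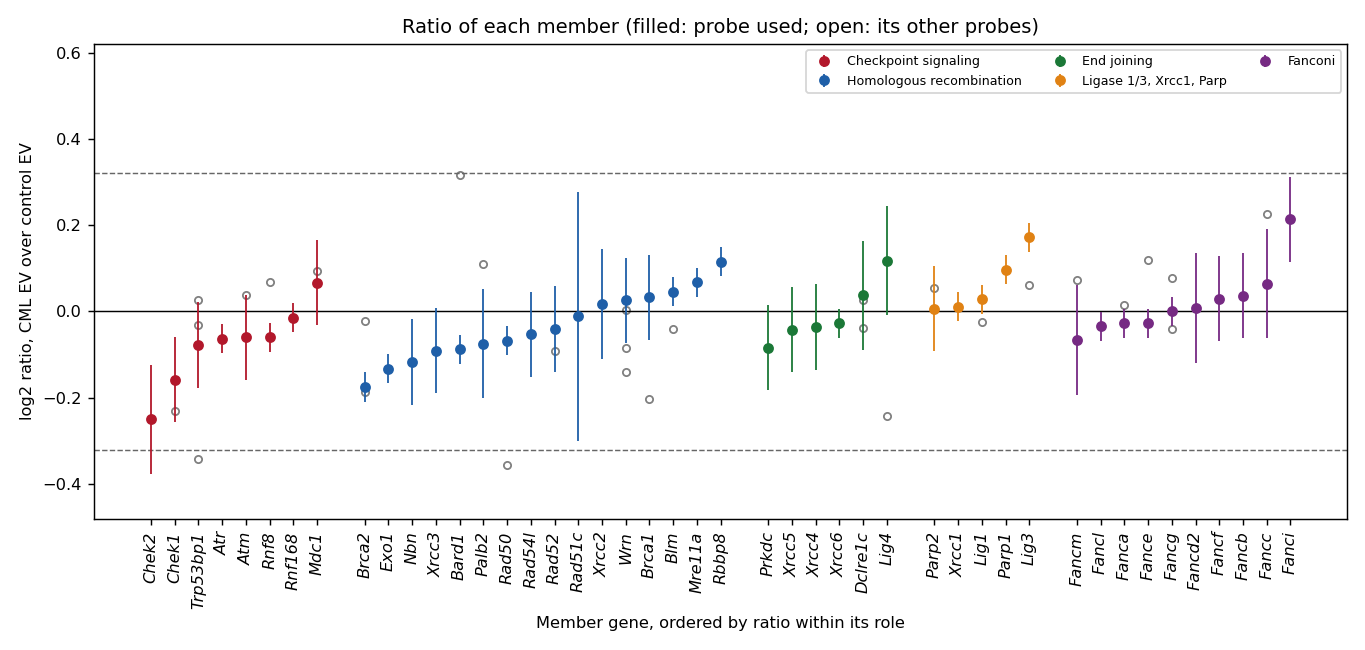
Ratio of CML EV to control EV signal (vertical axis, log2) for each of the 45 members (horizontal axis), grouped and coloured by role. Filled points are the probe used for the gene, with bars of 1 SD of the repeated probes in its signal range, open points are its other probes well above background on both arrays, and dashed lines mark a difference of 25%; no filled point passes them, Chek2 at -0.25 being the lowest and Fanci at 0.21 the highest.

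Homologous recombination genes showed no common direction beyond a slight lean. Of 16 members 10 lay below the median of all genes, and their median log2 ratio was -0.05. With the values given here and these 3 alternatives, 7 were always below, 2 always above and 7 changed sides. Brca2 encodes a large protein that is needed at resected ends and protects stalled forks. Its signals were 1105 and 978, a log2 ratio of -0.18 or 1.13-fold lower, and a second bright probe gave 927 and 814, a log2 ratio of -0.19. Another, dim probe of Brca2 with signals of 94.7 and 93.3 gave -0.02, so that the bright probes lay together and the dim one near 0. Brca2 is the member whose promoter holds separate matches of both elements, and Bard1 and Rad51c of the same group hold E2F matches. Exo1, for an exonuclease of end resection, had signals of 2840 and 2590 and a log2 ratio of -0.13. Nbn encodes NBS1, the subunit through which the break-sensing complex binds ATM, and had signals of 287 and 264 with a log2 ratio of -0.12.

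The other subunits of that complex lay on either side of 0. Mre11a, for its nuclease, had signals of 1650 and 1730 and a log2 ratio of 0.07. Rad50, for the ATPase that tethers ends, had 1317 and 1257 and a log2 ratio of -0.07, while its dimmer probe, at 161 and 125, gave -0.36. Rad50 thus lay on the same side as Nbn with both probes, and Mre11a on the other. Rbbp8 encodes CtIP, which starts resection together with the complex, and was the highest of the group with signals of 2592 and 2808, a log2 ratio of 0.12. Blm, for a helicase that resolves recombination intermediates, had signals of 2559 and 2641 and a log2 ratio of 0.05. The other probe of Blm, at 1850 and 1797, gave -0.04.

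The remaining members of the group, with log2 ratios from -0.09 to 0.03, were Brca1, its partners Bard1 and Palb2, the recombination factors Rad51c, Rad52, Rad54l, Xrcc2 and Xrcc3, and the helicase gene Wrn. Brca1 had signals of 663 and 678, a log2 ratio of 0.03, though -0.20 with its other probe, and Palb2, whose product links BRCA1 and BRCA2, 113 and 107, a log2 ratio of -0.07. The side of 0 on which Brca1 lay thus depended on the probe. Rad51c had the weakest signals of all members, at 39.3 and 39.0. Rad54l, for a motor protein of strand invasion, had 817 and 787, and Rad52 293 and 285. Xrcc3 had 606 and 569 and Xrcc2 195 and 197. Wrn had 910 and 927.

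Classical end joining genes were nearly alike in the 2 cultures. Their 6 log2 ratios ran from -0.08 to 0.12 with a median of -0.03, and 4 lay below the median of all genes. Xrcc6 and Xrcc5 encode Ku70 and Ku80, the ring that binds the broken end; Xrcc6 had signals of 5164 and 5065 and Xrcc5 495 and 481, with log2 ratios of -0.03 and -0.04. Prkdc, for the catalytic subunit of DNA-PK that Ku recruits, had signals of 357 and 337, a log2 ratio of -0.08. All 3 parts of the DNA-PK holoenzyme were thus within 0.1 of 0. Dclre1c encodes the nuclease Artemis and had signals of 247 and 253, a log2 ratio of 0.04, in each of its 3 probes within 0.05 of 0. The gene for the ligation factor Xrcc4 had signals of 314 and 307, a log2 ratio of -0.04. Lig4, for the ligase that XRCC4 binds, had signals of only 115 and 125, a log2 ratio of 0.12, and a dimmer probe pointed the other way.

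The ligase 1 and 3, Xrcc1 and poly(ADP-ribose) polymerase genes were the group with no member below 0 by the probe used. However, Lig1 and Xrcc1 were at -0.01 each with quantile normalization, and the other probe of Lig1, at 576 and 566, gave -0.03. The median log2 ratio of the group was 0.03 over 5 members. Lig3 encodes the ligase that works with XRCC1 and had signals of 1640 and 1848, a log2 ratio of 0.17 or 1.13-fold higher; its dimmer probe gave 0.06. Parp1, for the polymerase that detects strand breaks, had signals of 1619 and 1731, a log2 ratio of 0.10. Both probes of Lig3 and the 1 probe of Parp1 were thus higher with CML EVs. Xrcc1, for the scaffold of nick repair, had 3406 and 3433, a log2 ratio of 0.01, and Lig1, which joins Okazaki fragments at replication forks, 9134 and 9313, a log2 ratio of 0.03. Parp2 had signals of 475 and 477 and a log2 ratio of 0.01, equal to the median of all genes at this rounding.

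Fanconi genes were spread evenly around 0 with 1 gene apart from the rest. Of 10 members 5 lay below the median of all genes, and their median log2 ratio was 0.00. Fanci, for a component of the pair that the core complex ubiquitinates, had signals of 634 and 735, a log2 ratio of 0.21 or 1.16-fold higher, measured by 1 probe. Fancd2, which encodes the other component of that pair, had signals of 95.6 and 96.1 and a log2 ratio of 0.01. The scanner error of these ratios was 0.20 and 0.21, so that the gap between the partners was about as large as the error of either. Fancc had signals of 161 and 168 and Fancb 617 and 633, with log2 ratios of 0.06 and 0.04; both products belong to the core complex. On the lower side, Fancm, for the translocase that brings the core complex to DNA, had 238 and 227, a log2 ratio of -0.07. The other probe of Fancm, at 155 and 163, gave 0.07, so that its side depended on the probe. Fancl, for the ubiquitin ligase of the core complex, had 1389 and 1356 and a log2 ratio of -0.03, and Fanca, for another core subunit, 1207 and 1183, also -0.03. Of further core subunits, Fance had 3645 and 3577, Fancf 688 and 702 and Fancg 1517 on both arrays, with log2 ratios between -0.03 and 0.03.

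Several probes of 1 gene served as a further check. The arrays held 79 probes of the members, of which 75 passed the background filter on both arrays, 3 (of Fanca, Prkdc and Rbbp8) on neither, and 1 of Wrn with control EVs only, at signals of 25.8 and 9.30. For 23 members there were at least 2 measured probes, and the median difference between the highest and lowest log2 ratio of a gene's probes was 0.13. The probes lay on 1 side of 0 for 8 members and on both sides for 15. All were below 0 for 4 members and all above for 4. In 3 genes there were probes at least 0.3 apart. Bard1 had -0.09 at signals of 1314 and 1236, but 0.32 at signals of 30.8 and 38.3. Lig4 had 0.12 as given above, but -0.24 at 47.3 and 40.0. Trp53bp1 had -0.08 with its brightest probe, but -0.34 at 46.1 and 36.4, and 0.03 and -0.03 with its other probes. Those last ratios of Trp53bp1 carried scanner errors of 0.29 and 0.42, too wide to place them against its brightest probe.

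**Figure D3:**
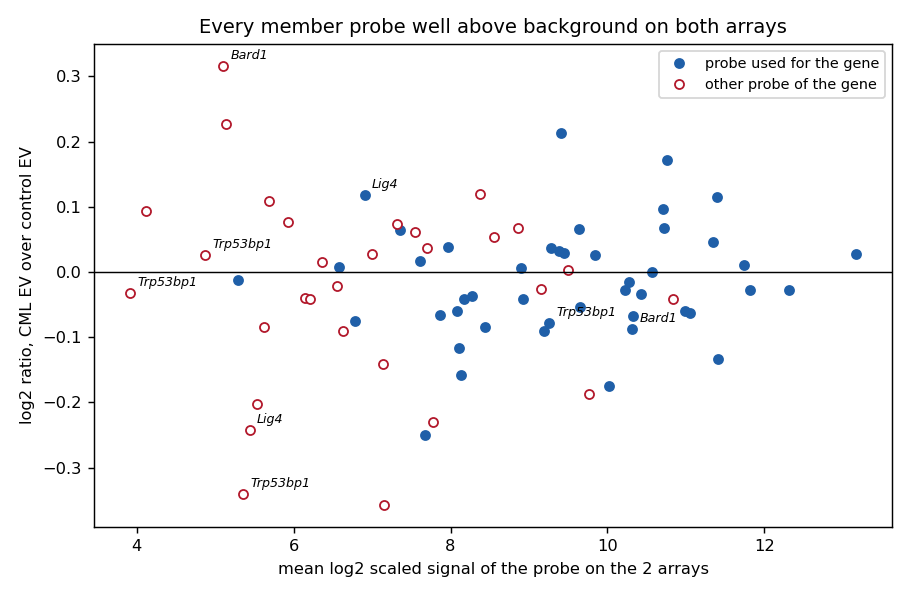
Ratio of CML EV to control EV signal (vertical axis, log2) by brightness of the probe (horizontal axis, mean log2 signal after scaling) for the 75 member probes that passed the background filter; filled points are the probe used for a gene and open points its other probes. Of 12 probes with a mean log2 signal below 6, 5 lie more than 0.2 from 0, and of 20 probes at 10 or more none does.

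Further genes of the same pathways were close to 0 as well. Of 66 such genes, which include replication protein A, the 9-1-1 clamp, nucleases, translesion and end processing factors, 64 were measured and their median log2 ratio was 0.00; 30 were above 0 and 34 below. None was higher with CML EVs by 25% or more, and 1 was higher with control EVs by as much, namely Zfp365, at dim signals of 41.4 and 27.6, a log2 ratio of -0.59. Next lowest were Faap100, of the Fanconi core complex, at 116 and 95.8 (-0.28), Rif1, which acts with 53BP1 against resection, at 711 and 615 (-0.21), and the chromatin remodeler gene Hells at 424 and 377 (-0.17). Among the highest were the end joining polymerase gene Polm at 75.6 and 92.3 (0.29), Rad51b at 160 and 191 (0.26) and Rmi2 at 79.0 and 92.6 (0.23). Fan1 was not well above background on either array, and Dmc1, of meiosis, was so with control EVs only.

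Many repair genes are transcribed mainly in cycling cells, and markers of other cell types differed between the cultures. Cycle genes and these markers are therefore set beside the members. Of 24 replication and cycle genes 23 were measured; their log2 ratios had a median of 0.04 and a range from -0.12 to 0.14, and their signals summed to 191325 (control EVs) and 195072 (CML EVs). Neutrophil markers had a median log2 ratio of 0.71 over 12 genes, 11 of them above 0, and a summed signal of 548189 and 715423. All 8 megakaryocyte markers were below 0, with a median of -0.29 and a summed signal of 76735 and 69566, and of 13 measured stem and progenitor markers 12 were below 0, with a median of -0.15 and a summed signal of 52046 and 47034. Monocyte and macrophage markers had a median of 0.07 (8 of 8 measured, summed signal 24776 and 25868), mast cell and basophil markers 0.05 (8 of 8, 43184 and 45822) and erythroid markers 0.06 (5 of 8, 6149 and 6302). The measured erythroid markers were split, with 3 above 0 and 2 below. Hba-a1 had signals of 980 and 1149 (0.23) and Hbb-bt 510 and 314 (-0.70). Most of their summed signal came from Tfrc, at 3556 and 3694. Of 6 B cell markers only Cd79b was measured, at 734 and 751, while Cd79a and Ms4a1, for example, were not well above background on either array; the summed signal was 769 and 795. Of 8 T and NK cell markers 4 were measured, with a median of -0.09 and a summed signal of 2061 and 1950, and Cd3g, Cd8a and Ncr1 were not well above background. Sums are over all listed genes, with those not measured included. The part of such shifts in the values of the members was not tested.

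**Figure D4:**
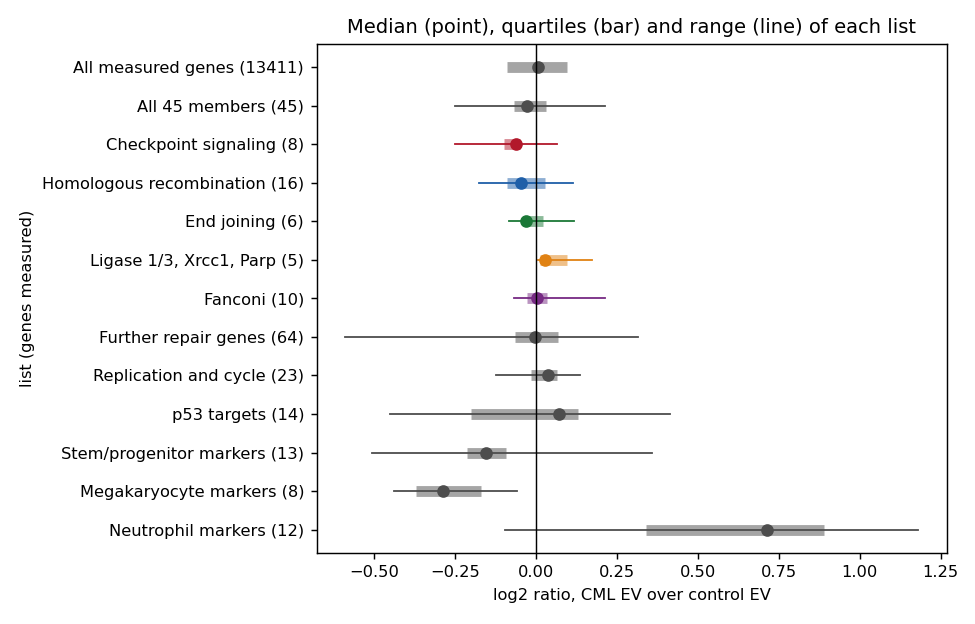
Median (point), quartiles (bar) and range (line; not drawn for all measured genes) of the CML EV to control EV ratio (horizontal axis, log2) for each list, with the number of measured genes in parentheses. The repair groups have medians from -0.06 to 0.03, whereas the neutrophil markers lie at 0.71 and the megakaryocyte markers at -0.29.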

How the data were processed

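The deposited scanner files give each spot's processed intensity with its error and flags. The scanner software, listed by the submitters as Feature Extraction 12.0.3.1, had subtracted the background. The value table that the authors deposited equals this intensity multiplied by a constant for each array. Here control spots and outlier spots (95 and 88) were left out, and each array was brought, after the methods, to a trimmed mean of 2500 (2% off either end). log2 values of a probe's spots were averaged. RefSeq accessions without version gave a symbol for 32994 of 56604 probes (gene table of GRCm38.p6; the array's own coordinates are of another assembly and were not used). Of several probes the one brightest with CML EVs was used. A gene was measured if well above background on both arrays.

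The members, lists and motifs were chosen with earlier results of these data known. Named by rule were members past a 25% difference, the 3 highest and lowest of each role group, members with probes 0.3 apart and the 4 highest and lowest further genes; other members and markers named are additions. Some genes that the rule or lists hold are not reported here. The further lists are replication and cycle genes, p53 targets and markers of stem and progenitor cells, erythroid cells, megakaryocytes, neutrophils, mast cells and basophils, monocytes and macrophages, B cells, and T and NK cells. Fold thresholds describe size only. The calculation was tested on simulated data. Alternatives covered scaling, normexp (limma 3.58.1, offset 50), the deposited values, the choice of probe, filters, outliers and thresholds, in Python 3.11.15 (pandas 2.3.3, numpy 2.4.6) and R 4.3.3. The number of arrays, 1 per condition, limits the precision.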

Additional observations from a re-analysis of the deposited data

How the results depend on the processing

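No paired analysis was possible because either condition had a single array. Members past a 25% difference numbered 0 on either side. At a 1.1-fold threshold they were 2 higher and 3 lower, and at 1.5-fold and 2-fold again 0. When a gene's probes were averaged, 2 members lay past 25% on the lower side, Rbbp8 at -0.38 and Wrn at -0.33, each through a dim probe below background on at least 1 array. The count of members below 0, 25 of 45, became 10 under median scaling, which adds the same amount to every gene, and 12 among the 22 members brighter than the median gene, where fewer genes enter. The median log2 ratio of the members, -0.027, became 0.043 under median scaling. Without a filter on dim probes the median of all genes was 0.04, and 36 of 45 members lay below it. The difference of the members' median from that of all genes, -0.034, then became -0.068. It shrank to -0.013 with normexp, -0.016 with averaged probes and -0.020 with means in place of medians. Scaling by a factor per array and the deposited values cannot change it. Of 450 log2 ratios of single members under 10 alternatives, 416 moved by less than the spread between repeated spots and 34 by more. The 34 were 19 under median scaling, 12 with averaged probes, 2 with normexp and 1 with quantile normalization. Outlier spots, the deposited values and the other choices of a single probe left every member as it was. Scaling to the 75th percentile or to the mean of all spots added only 0.008 or 0.011 to each, less than the smallest spread of 0.034. The 416 thus include all 45 ratios under each of these alternatives and say little about stability. Low signal limits Rad51c most, at 39.3 and 39.0.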

Other observations

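Target genes of p53, the transcription factor that the checkpoint kinases activate, showed a wider spread than the repair genes and no common direction. Of 15 such genes 14 were measured and their median log2 ratio was 0.07. Their interquartile range was 0.33, against 0.10 for the members and 0.19 for all measured genes. Above 0 were 8 and below 0 were 6, or 42.9%, against 48.1% of all genes. Past 25%, 1 was higher and 2 were lower, against 5.01% and 5.25% of all genes. Pmaip1, which encodes the apoptosis factor NOXA, was 1.33-fold higher at signals of 959 and 1278. Zmat3 was 1.37-fold lower at 110 and 80.5 and Phlda3 1.26-fold lower at 490 and 388. Cdkn1a, for the cell cycle inhibitor p21, had signals of 2286 and 2428, a log2 ratio of 0.09, and Mdm2, for the ubiquitin ligase of p53, 4721 and 5123, a log2 ratio of 0.12. Bbc3, for the apoptosis factor PUMA, was on the other side at 1901 and 1627, a log2 ratio of -0.22. Eda2r was not well above background on either array. These genes were chosen with earlier results of the data known, and each value stands on 1 culture per condition.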
